A study of Mus musculus with 11 samples.

Results

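The interleukin-6 (IL-6) cytokine pathway was followed in mouse muscle stem cells through 10 genes: the ligands Il6 and Lif, the receptor chains Il6ra, Il6st, Lifr and Osmr, the transcription factor Stat3, and the inhibitors Socs1, Socs2 and Socs3. They were chosen by name as parts of the pathway, with earlier results of these data known, and all 10 were found among the 48709 genes of the count table. Muscle stem cells, or satellite cells, lie dormant beside the muscle fibre and rebuild it after injury. The cells came from pectoral, forelimb and hindlimb muscles of C57BL/6 mice carrying Tg:Pax7-nGFP, in which Pax7 sequences drive a green fluorescent protein of the nucleus, and every group carries this transgene. In T0 (3 libraries) the muscles were fixed in situ with 0.5% paraformaldehyde for 1 h, before the tissue was taken apart. T3 cells (4 libraries) went through a standard isolation with cell sorting and were then fixed with 0.5% paraformaldehyde for 30 min. T5 cells (4 libraries) had a further 2 h at 37°C and the same 30 min fixation. The labels' protocol places these 2 h in DMEM before the sort, on dissected muscle, whereas the series description has them follow the isolation, so which of these the T5 cells went through is unclear. Isolation and the way of fixing changed together between T0 and T3 and cannot be told apart.

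T5 libraries that share a letter in their titles were summed, which left n = 3, 4 and 2 replicates in T0, T3 and T5. Nothing says that replicates came from separate animals, so a p-value here covers only the spread among the libraries at hand, possibly a technical one. Total counts ran from 49078859 to 67251946 (T0), from 52632553 to 72638711 (T3) and from 61837170 to 102347035 (T5). On the first principal component (57.9% of the variance) T0 replicate 3, at -80.4, lay nearer to the isolated cells (50.7 to 69.5) than T0 replicates 1 and 2 (-158 and -121). All 10 satellite cell markers checked were present, with a summed level of 5200 to 7930 CPM (counts scaled to a common library size) in T0, and of 2490 to 3140 CPM in T3 and 1840 to 1910 CPM in T5. Pax7 held most of that difference (means of 3610, 315 and 316 CPM). Of the 10 markers 3 were higher in T3 than in T0 and 4 lower, against 15% and 22.9% of all tested genes. In T5 against T3, 0 were higher and 3 lower, against 1.28% and 0.888% of all tested genes. In T5 against T0, 2 were higher and 7 lower, against 13.2% and 22.5%. In such bulk samples, fewer cells of a type and less RNA per cell cannot be told apart.

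Cytokines of the IL-6 family signal through a shared receptor chain, gp130, which Il6st encodes. IL-6 first binds its own receptor Il6ra, whereas LIF and oncostatin M bring Lifr or Osmr together with gp130. Janus kinases on these chains then phosphorylate STAT3, which enters the nucleus and switches on target genes, among them Socs3, whose protein blocks gp130 and its kinases. In satellite cells STAT3 signalling is known for its part in myogenic commitment, and oncostatin M for promoting quiescence.

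In cells isolated before fixation (T3), 8 of the 10 genes were higher than in cells fixed within the muscle (T0) and 2 were lower. Il6, Osmr, Socs3 and Stat3 rose most, by 13.3-fold, 12.3-fold, 9.03-fold and 7.39-fold, and Socs1, Lif, Il6ra and Il6st rose by 4.81-fold to 2.13-fold. Lifr and Socs2 fell, by 2.18-fold and 3.01-fold. Of all 31999 genes tested, 37.9% were called, 15% higher and 22.9% lower, with a median log2 fold change of 0.05, against 1.95 over the 10 genes. A gene was called where edgeR's quasi-likelihood test gave a Benjamini-Hochberg adjusted p under 0.05 over all genes tested, and all 10 genes passed the filter on low counts. The replicates of T0 and T3 did not overlap for 9 of the 10 genes, which was so for 38.3% of all tested genes. Without T0 replicate 3 the count was again 8 higher and 2 lower.

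**Figure D1:**
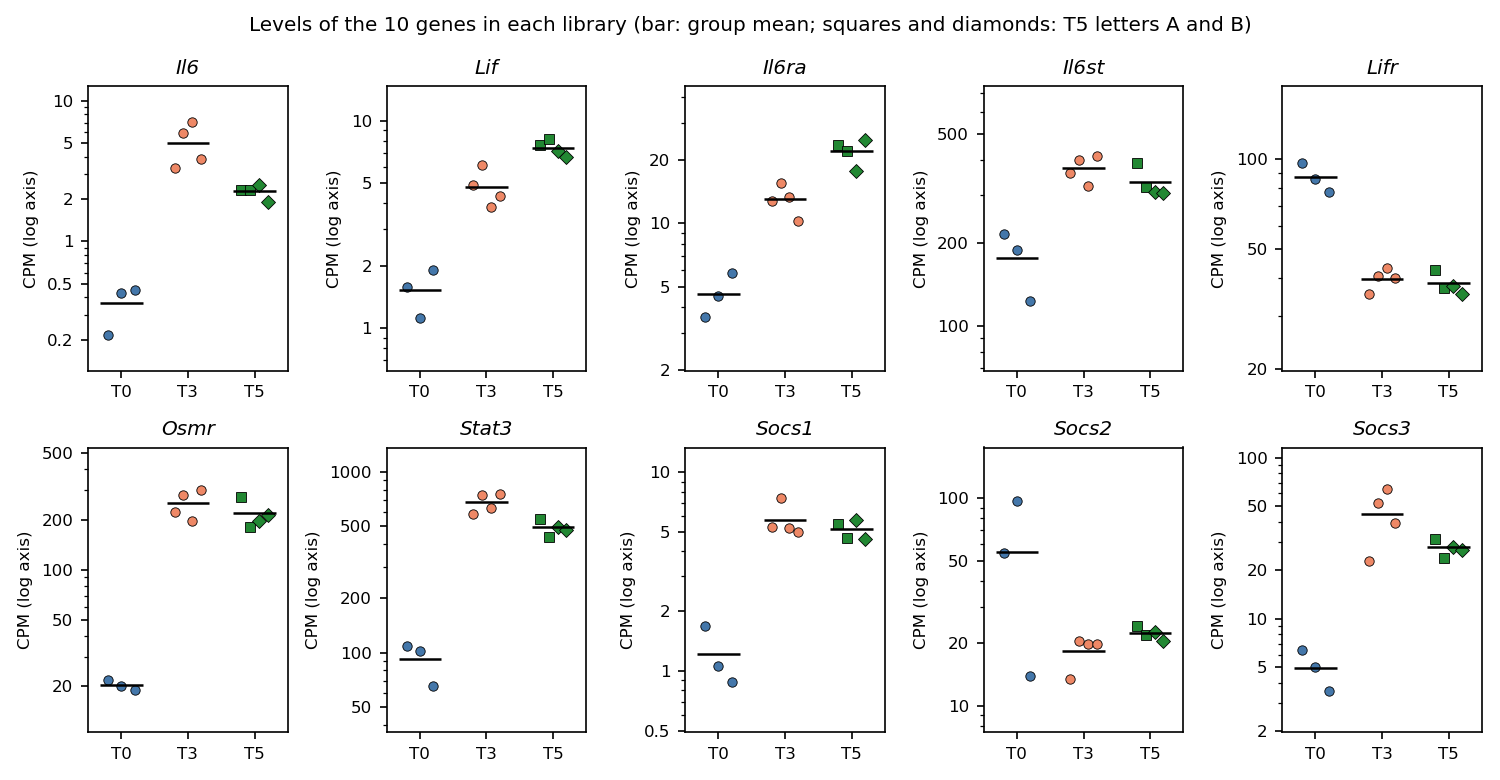
Each point is 1 library, with its level in CPM on a log axis by group (T0, T3, T5), and the bars are group means. T0 lies below both other groups for 8 genes and above them for Lifr, while the T0 values of Socs2, from 13.9 to 97.4 CPM, reach into the other groups.

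The promoters of Il6, Lif and Socs3 are shown because these genes rose together and were the ones with a match, before the start, to letters of factors that relay cytokine and stress signals. RefSeq promoters of 250 bases before to 50 after the start (GRCm38.p6) matched 9 of the 10 genes. Both strands were searched for STAT (TTCNNNGAA), AP-1 (TGANTCA), NF-kB (GGG and TTTCC with any 2 bases between) and CRE (TGACGTCA) letters. The stretches run 5′ to 3′ on the gene's strand, end before any exon that GENCODE gives the gene, and carry the matches in capitals. For Il6 it is chr5:30012864-30013113 (+ strand), for Lif chr11:4257318-4257556 (+ strand) and for Socs3 chr11:117969452-117969616 (- strand). The Il6 and Lif stretches lie upstream of every annotated exon, and the Socs3 stretch lies in an intron of a longer noncoding Socs3 transcript.
Il6: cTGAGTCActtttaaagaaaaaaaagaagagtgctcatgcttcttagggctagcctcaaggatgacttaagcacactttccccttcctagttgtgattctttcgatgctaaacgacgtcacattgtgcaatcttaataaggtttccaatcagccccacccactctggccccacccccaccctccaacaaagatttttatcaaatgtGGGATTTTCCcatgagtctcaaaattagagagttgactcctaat
Lif: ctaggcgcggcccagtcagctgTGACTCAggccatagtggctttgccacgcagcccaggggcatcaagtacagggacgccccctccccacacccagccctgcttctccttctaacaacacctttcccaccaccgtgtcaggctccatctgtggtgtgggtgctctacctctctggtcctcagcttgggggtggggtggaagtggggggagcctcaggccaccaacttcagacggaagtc
Socs3: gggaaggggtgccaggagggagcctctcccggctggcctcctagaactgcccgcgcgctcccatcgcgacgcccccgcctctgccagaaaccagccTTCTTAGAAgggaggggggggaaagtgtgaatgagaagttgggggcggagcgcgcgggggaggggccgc

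Il6 held AP-1 letters, TGAGTCA, 249 to 243 bases before its start, and NF-kB letters, GGGATTTTCC, 44 to 35 bases before it. Lif held the AP-1 letters TGACTCA at 228 to 222 bases before its start, and Socs3 the STAT letters TTCTTAGAA at 154 to 146 bases. All distances count from the RefSeq start. The Socs3 stretch ends 86 bases before that start because a GENCODE exon of the gene reaches there, so its match lies nearer to that exon. The only other match lay after the start of Osmr, with the AP-1 letters TGATTCA, and no match overlapped another. Of 32851 promoters of the same length, 7.81% held the AP-1, 8.3% the STAT, 1.63% the NF-kB and 1.79% the CRE letters. A match describes these letters and does not show that a factor binds there. The Il6 stretch was poor in CpG (3 pairs, 42.8% G or C), and the Lif and Socs3 stretches, with 6 and 13 pairs, had 62.8% and 70.3% G or C.

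Il6 (ENSMUSG00000025746.11, chr5:30013114-30019981, + strand, GRCm38 as all positions here) encodes the founding ligand, released by muscle and by immune cells. It stood at 0.216, 0.429 and 0.454 CPM in the T0 replicates, from 10, 25 and 36 reads. In T3 it was at 3.32, 5.87, 7.07 and 3.84 CPM, and in the 4 T5 libraries at 2.31, 2.33, 2.51 and 1.91 CPM. Every T3 library was above every T5 library, and every T5 library above every T0 library. The T0 level was near the background. Per kilobase of exon it exceeded 86.6, 92.7 and 90.4% of 1721 olfactory receptor, vomeronasal receptor and defensin genes. These were picked by name and taken as silent in muscle, which was not checked. From a mean of 0.367 ± 0.131 (SD, n = 3) in T0 to 5.03 ± 1.75 (n = 4) in T3 the log2 fold change was 3.74 ± 0.33 (SE), with an edgeR adjusted p of 8.14e-09.

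Lif (ENSMUSG00000034394.14, chr11:4257557-4272514, + strand) encodes leukemia inhibitory factor, which signals through Lifr and gp130. Its level was 1.58, 1.12 and 1.9 CPM in T0 and 4.9, 6.11, 3.84 and 4.36 CPM in T3. The T5 libraries held 7.68, 8.17, 7.12 and 6.69 CPM, so the order of the groups was T0, T3, T5 with no overlap. T3 was 1.64 ± 0.25 above T0 on the log2 scale (edgeR adjusted p = 9.34e-06). Il6 had its highest levels in T3 and Lif in T5.

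Osmr (ENSMUSG00000022146.12, chr15:6813577-6874969, - strand), the chain that binds oncostatin M, changed most among the receptors. Its T0 values were close together, 21.8, 20 and 19 CPM, and T3 had 222, 281, 197 and 301 CPM. T5 libraries had 272, 181, 195 and 213 CPM, within or just under the range of T3 and far above T0. The log2 fold change of T3 against T0 was 3.62 ± 0.24 (edgeR adjusted p = 1.77e-10).

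Lifr (ENSMUSG00000054263.12, chr15:7090614-7197489, + strand), the LIF-binding chain, whose gene lies near Osmr, moved the other way. It was at 97.4, 85.6 and 77.8 CPM in T0 and at 35.4, 40.8, 43.3 and 40.2 CPM in T3. With 42.8, 37.1, 37.8 and 35.4 CPM, the T5 libraries lay among those of T3, and every isolated library was under every T0 library. T3 was below T0 by a log2 fold change of -1.12 ± 0.19 (edgeR adjusted p = 3.62e-05).

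Il6st (ENSMUSG00000021756.12, chr13:112464070-112510086, + strand), the shared gp130 chain, had the highest mean level per length of the 10 genes in T0. Its values were 216, 189 and 123 CPM in T0, 358, 399, 323 and 414 CPM in T3, and 391, 320, 307 and 303 CPM in T5. The isolated libraries were all above T0 and overlapped each other. T3 differed from T0 by 1.09 ± 0.23 (log2, edgeR adjusted p = 0.000415), the smallest rise of the 8.

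Il6ra (ENSMUSG00000027947.11, chr3:89864059-89913196, - strand), the chain that recognises IL-6 itself, was the lowest of the 4 receptor chains in every group. It was at 3.57, 4.5 and 5.78 CPM in T0, 12.7, 15.5, 13.4 and 10.3 CPM in T3, and 23.7, 22.1, 17.7 and 25 CPM in T5. As with Lif, the 3 groups did not overlap and T5 was highest. T3 was 1.49 ± 0.22 above T0 (log2, edgeR adjusted p = 9.77e-06). An antisense gene, Gm42809, shares 242 exon bases with Il6ra, and the counts do not separate strands, but Gm42809 had only 2 to 53 reads in any library.

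**Figure D2:**
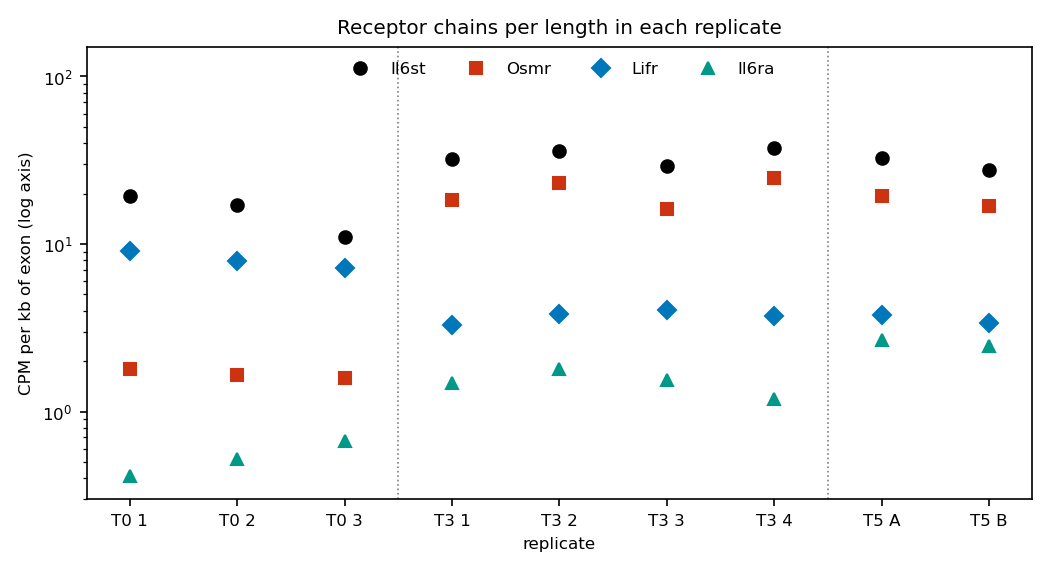
Points are the 4 receptor chains in each replicate (T5 letters summed), in CPM per kilobase of merged exon on a log axis, with dotted lines between groups. Osmr and Lifr exchange places between T0 and the isolated cells, while Il6st is the highest and Il6ra the lowest chain in each replicate.

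Compared per length within each replicate, the makeup of the chains differed between the groups. Osmr stood at 0.199 to 0.218 times the level of Lifr in T0, and at 4.05 to 6.66 (T3) and 4.94 to 5.14 times (T5) after isolation. The ratio of Lifr to Il6st was 0.465 to 0.652 (T0), 0.0999 to 0.138 (T3) and 0.115 to 0.124 (T5), and that of Osmr to Il6st went from 0.0926 to 0.142 in T0 to 0.558 to 0.665 in T3. For Il6ra to Il6st, T0 (0.0213 to 0.0605) and T3 (0.032 to 0.0531) overlapped, and T5 (0.0819 to 0.0891) lay above both. These ratios were chosen after the levels had been seen and are a description with no test of their own.

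Stat3 (ENSMUSG00000004040.16, chr11:100885098-100939540, - strand), the factor that carries the signal to the nucleus, was at 109, 103 and 65.4 CPM in T0. It reached 588, 746, 634 and 759 CPM in T3 and 553, 435, 494 and 477 CPM in T5. No library of T3 or T5 came near T0, where replicate 3 was the lowest. The mean went from 92.3 ± 23.5 (n = 3) to 682 ± 83.8 (n = 4) in T3, a log2 fold change of 2.89 ± 0.25 (edgeR adjusted p = 5.42e-09). Stat3 shares 72 exon bases with Stat5a on the other strand, whose reads numbered 1123 to 4377 per library.

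Socs3 (ENSMUSG00000053113.3, chr11:117966079-117970047, - strand), the main feedback inhibitor of gp130, was at 6.36, 4.99 and 3.55 CPM in T0. In T3 it varied most of the 10 genes relative to its mean, at 22.8, 52.5, 64.3 and 39.1 CPM. The T5 libraries held 31.2, 23.8, 28 and 26.8 CPM, inside the range of T3, and all 8 isolated libraries exceeded T0. The log2 fold change of T3 against T0 was 3.17 ± 0.31 (edgeR adjusted p = 2.62e-08). Relative to Stat3 per length, Socs3 was at 0.16 to 0.193 (T0), 0.128 to 0.334 (T3) and 0.184 to 0.186 (T5), ranges that overlap.

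Socs1 (ENSMUSG00000038037.5, chr16:10782240-10785536, - strand), an inhibitor of Janus kinases best known from interferon signalling, was low throughout. It was at 1.69, 1.06 and 0.882 CPM in T0, 5.34, 7.42, 5.24 and 5 CPM in T3, and 5.51, 4.66, 5.79 and 4.64 CPM in T5. T0 lay below the other groups, which overlapped each other. T3 was 2.26 ± 0.26 above T0 (log2, edgeR adjusted p = 2.78e-07).

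Socs2 (ENSMUSG00000020027.18, chr10:95385362-95417180, - strand) acts mainly on growth hormone signalling. Its T0 values were far apart, at 54.6, 97.4 and 13.9 CPM, and T3 had 13.4, 20.5, 19.8 and 19.8 CPM. T5 had 24.2, 22, 22.7 and 20.5 CPM. T0 replicate 3 lay among the isolated libraries, and this was the only 1 of the 10 genes whose T0 and T3 replicates overlapped. The log2 fold change of T3 against T0 was -1.59 ± 0.36 (edgeR adjusted p = 0.000961). It was -0.9 without T0 replicate 2 and -2.05 without T0 replicate 3, with adjusted p of 0.0377 and 2.95e-06.

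Compared per kilobase of exon, the order of the 10 genes differed between the groups. In T0 it was Il6st (15.8 ± 4.3 CPM per kb), Stat3 (9.69 ± 2.46), Lifr (8.07 ± 0.918), Socs2 (5.81 ± 4.38), Socs3 (1.72 ± 0.485), Osmr (1.68 ± 0.116), Il6ra (0.534 ± 0.129), Socs1 (0.417 ± 0.145), Lif (0.352 ± 0.091) and Il6 (0.151 ± 0.0538). Among neighbours in this order, only Osmr over Il6ra and Lif over Il6 had ranges that did not overlap. In T3 Stat3 led at 71.6 ± 8.8 CPM per kb, followed by Il6st (33.7 ± 3.7), Osmr (20.7 ± 4.02), Socs3 (15.5 ± 6.18) and Lifr (3.7 ± 0.307), and only Osmr and Socs3 overlapped among these 5. The other 5, from Il6 (2.07 ± 0.722) down to Lif (1.1 ± 0.224), overlapped with their neighbours. T5 kept the order of the first 5, from Stat3 at 51.9 ± 1.25 to Lifr at 3.57 ± 0.245 CPM per kb. Il6 was there the lowest of the 10, at 0.936 ± 0.028.

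**Figure D3:**
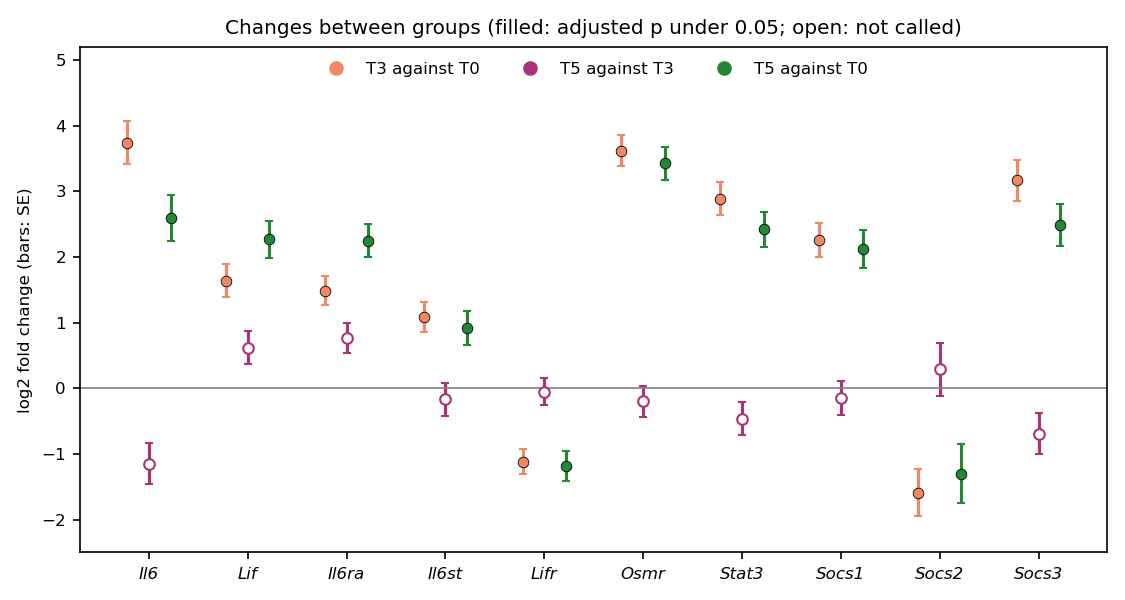
Log2 fold changes of the 10 genes in the 3 comparisons, with standard errors as bars, filled where the edgeR adjusted p was under 0.05. In both comparisons with T0 all points are filled, with 8 genes above and 2 below the line, and all points of T5 against T3 are open.

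With the further 2 h (T5 against T3), edgeR's quasi-likelihood test called none of the 10 genes, against 2.17% of all tested genes (1.28% called higher and 0.888% lower). At an unadjusted p under 0.05 there were 4 (Il6, Lif, Il6ra and Socs3), and DESeq2 called 1, Il6. The nearest was Il6, with a mean of 2.27 ± 0.068 CPM (n = 2) against 5.03 ± 1.75 in T3, a log2 difference of -1.15 (95% interval -1.8 to -0.5, edgeR adjusted p = 0.0558). Il6ra differed by 0.77 (0.28 to 1.25, adjusted p = 0.1), Lif by 0.62 (0.1 to 1.14, adjusted p = 0.267) and Socs3 by -0.69 (-1.34 to -0.04, adjusted p = 0.349). The replicates of T3 and T5 did not overlap for 5 genes (Il6, Lif, Il6ra, Stat3 and Socs2), which was so for 38.2% of all tested genes. Stat3 was lower in both T5 replicates, by -0.46 (-0.99 to 0.06, adjusted p = 0.457).

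For the other genes the intervals of the difference between T5 and T3 spanned 0. They reached from -0.69 to 0.35 for Il6st, -0.5 to 0.39 for Lifr, -0.69 to 0.29 for Osmr, -0.69 to 0.4 for Socs1 and -0.55 to 1.13 for Socs2. Whether Il6 was called changed with single libraries, while its log2 difference stayed between -1.3 and -0.94 over all settings. Its edgeR adjusted p was 0.0109 without T0 replicate 1, 0.0313 without T0 replicate 3 and 0.0335 without T3 replicate 1. Il6ra likewise came to 0.031 and 0.0138 without T0 replicates 1 and 3, which enter through the shared estimate of the spread.

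Set against cells fixed in the muscle, the T5 cells differed in the same 10 genes, 8 higher and 2 lower, where 35.7% of all tested genes were called, 13.2% higher and 22.5% lower. Since both comparisons use the T0 libraries, they are not independent. Osmr was highest with a log2 fold change of 3.43 ± 0.25 (edgeR adjusted p = 1.58e-09), followed by Il6 with 2.59 ± 0.35 (4.08e-06), Socs3 with 2.49 ± 0.32 (2.89e-06) and Stat3 with 2.42 ± 0.26 (3.2e-07). Lif (2.27 ± 0.28), Il6ra (2.25 ± 0.25) and Socs1 (2.12 ± 0.29) came next, with adjusted p from 4.98e-07 to 4.17e-06. Lifr was lower by -1.18 ± 0.23 (edgeR adjusted p = 0.000339). The replicates did not overlap for 9 of the 10 genes, against 59.3% of all tested genes.

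The other 2 calls of T5 against T0 were not kept in every setting. Il6st was 0.92 ± 0.26 higher (edgeR adjusted p = 0.00701). Without T5 replicate A it was 0.82 higher with an adjusted p of 0.112, where the lone T5 replicate was assumed to vary like the other groups. Socs2 was -1.3 ± 0.45 lower (edgeR adjusted p = 0.0261), and its replicates overlapped. Its log2 fold change was -0.61 without T0 replicate 2 (adjusted p = 0.264). With 1 T5 replicate left it was -1.33 without A and -1.25 without B (adjusted p of 0.0667 and 0.0977), and DESeq2 gave -1.43 with an adjusted p of 0.121. Over 17 settings (the fit described and 16 alternatives of scaling, filter, tool or samples) it ran from -1.76 to -0.61 and was called in 11.

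Transcripts used as markers of other cells were present too, with low sums for immune markers and higher ones for fibro-adipogenic, pericyte and endothelial markers. Single genes held much of the higher sums, in T0 Col3a1 (mean 490 CPM), Gsn (414), Notch3 (738) and Tek (155). Others of these lists were as low as immune markers, such as Pdgfra (3.27 CPM), Kcnj8 (3.17) and Cldn5 (0.677), so the sums do not rank the cell types. Of 10 monocyte and macrophage markers, 3 (Csf1r, Cd68 and Itgam) were higher in T3 than in T0, and their summed level was 20.1 to 35.3 CPM (T0), 36.5 to 54.3 CPM (T3) and 38.3 to 45.7 CPM (T5). Neutrophil markers summed to 5.58 to 8.98, 4.95 to 21.8 and 10.1 to 11.2 CPM (1 of 8 higher in T3), and lymphocyte markers to 5.22 to 9.34, 5.76 to 7 and 6.47 to 7.46 CPM (1 of 7 tested). Endothelial markers were at 256 to 298, 454 to 553 and 268 to 269 CPM, with 5 of 10 higher in T3 than in T0, and 5 lower in T5 than in T3. For fibro-adipogenic markers the ranges were 862 to 1280, 463 to 758 and 599 to 601 CPM, with 2 of 10 higher and 3 lower in T3. Pericyte markers (660 to 1080, 257 to 496, 214 to 222 CPM) had 1 of 8 higher and 4 lower in T3, and Schwann cell markers (93.8 to 125, 62.3 to 80.4, 53.2 to 53.3 CPM) 2 of 6 each way. Myofibre markers were at 122 to 135, 154 to 217 and 138 to 140 CPM, with 10 of 12 higher and 1 lower in T3, and 5 lower in T5 than in T3. Of all tested genes, 15% were called higher and 22.9% lower in T3 than in T0, and 0.888% lower in T5 than in T3. No marker of these lists was at 0 in any library. Their part in the levels of Il6, Lif and the other 8 genes was not tested.

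Other genes of the pathway were read in lists of ligands, receptors, kinases, regulators and targets. Beside the T3 counts of these lists stand 15% of all tested genes called higher in T3 than in T0 and 22.9% called lower. Of 10 other ligands of the family, 2 rose in T3 and 3 fell (median log2 fold change 0.52, against 0.05 over all genes). Clcf1, cardiotrophin-like cytokine, rose from 82.4 ± 32.9 to 387 ± 44.4 CPM (2.23 ± 0.26, edgeR adjusted p = 3.84e-07). Osm, the ligand of Osmr, was at 0.233 ± 0.222 CPM in T0 and 0.399 ± 0.122 in T3 and was not called (adjusted p = 0.375). Ctf1 and Ctf2 were lower and Il31 higher, and the call on Ctf2 held in 3 of 17 settings. Clcf1, Ctf1, Ctf2, Il31 and, of the genes named next, Jak1, Tyk2, Stat6, Pias3, Pim1, Junb, Bcl6 and Ccnd1 overlap another gene in the annotation, so their counts are uncertain.

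Of 4 other receptors, none rose in T3 by edgeR or DESeq2 and 1 fell, the only 1 with an unadjusted p under 0.05, with a median log2 fold change of -0.23. The gene that fell was Il11ra1, a receptor of IL-11 that overlaps 6 other genes, by -1.27 ± 0.21 (edgeR adjusted p = 2.85e-05). Cntfr, which binds ciliary neurotrophic factor, was at 4.16 ± 0.455 CPM in T0, 4.98 ± 0.287 in T3 and 8.1 ± 0.559 in T5. It was called for T5 against T0 (0.96 ± 0.23, edgeR adjusted p = 0.00203). Il31ra had the highest level of this list, at 2590 ± 1830 CPM in T0, 1920 ± 729 in T3 and 3500 ± 1380 in T5. The main fit called Il31ra in no comparison, and Gm3226 overlaps it, so its counts are uncertain.

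Among 10 Janus kinases and other STATs, 3 rose in T3 and 4 fell (median 0.16). Jak1, the kinase most tied to gp130, rose from 153 ± 35 to 447 ± 38.7 CPM (1.54 ± 0.22, edgeR adjusted p = 5.22e-06). Tyk2, a Janus kinase of the same receptors, fell from 21.1 ± 5 to 5.31 ± 0.817 CPM (-1.99 ± 0.21, adjusted p = 1.05e-07). Stat5b, a STAT of growth hormone and other cytokines, fell from 176 ± 39.7 to 58.9 ± 8.72 CPM (-1.58 ± 0.21, adjusted p = 1.99e-06), while Stat3 rose. Stat6 fell too, by -0.78 ± 0.21. Stat5a rose by 1.22 ± 0.24, with the overlap with Stat3 named above, and the call on Jak2 (0.52 ± 0.2, adjusted p = 0.0406) was lost in 10 of 17 settings.

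Of 15 other regulators, 6 rose in T3 and 3 fell (median 0.33). Cish, a SOCS family gene known as a STAT5 target, rose from 0.521 ± 0.305 to 2.78 ± 0.313 CPM (2.36 ± 0.31, edgeR adjusted p = 1.74e-06), though Gm17040 and Gm17041 overlap it. Ptpn1, a phosphatase that acts on Janus kinases, rose from 55.5 ± 16.6 to 173 ± 26.9 CPM (1.64 ± 0.23, adjusted p = 4.97e-06). Pias3, an inhibitor of STAT3, fell from 13.6 ± 4.24 to 4.95 ± 0.997 CPM (-1.46 ± 0.23, adjusted p = 1.75e-05). Socs4, Socs5, Socs6 and Socs7 were not called, with log2 fold changes from -0.1 to 0.39. In the same direction as Pias3, Pias1 and Adam10 fell by -0.66 ± 0.23 and -0.56 ± 0.19, and were called in 11 and 7 of 17 settings. Upper quartile scaling gave -0.31 and -0.25 (adjusted p of 0.122 and 0.0785). The PIAS genes did not move together. Pias2 rose from 114 ± 31.1 to 295 ± 48.9 CPM (1.37 ± 0.23, edgeR adjusted p = 4.27e-05) and was called in all 17 settings. Pias4 was not called (0.05 ± 0.21).

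**Figure D4:**
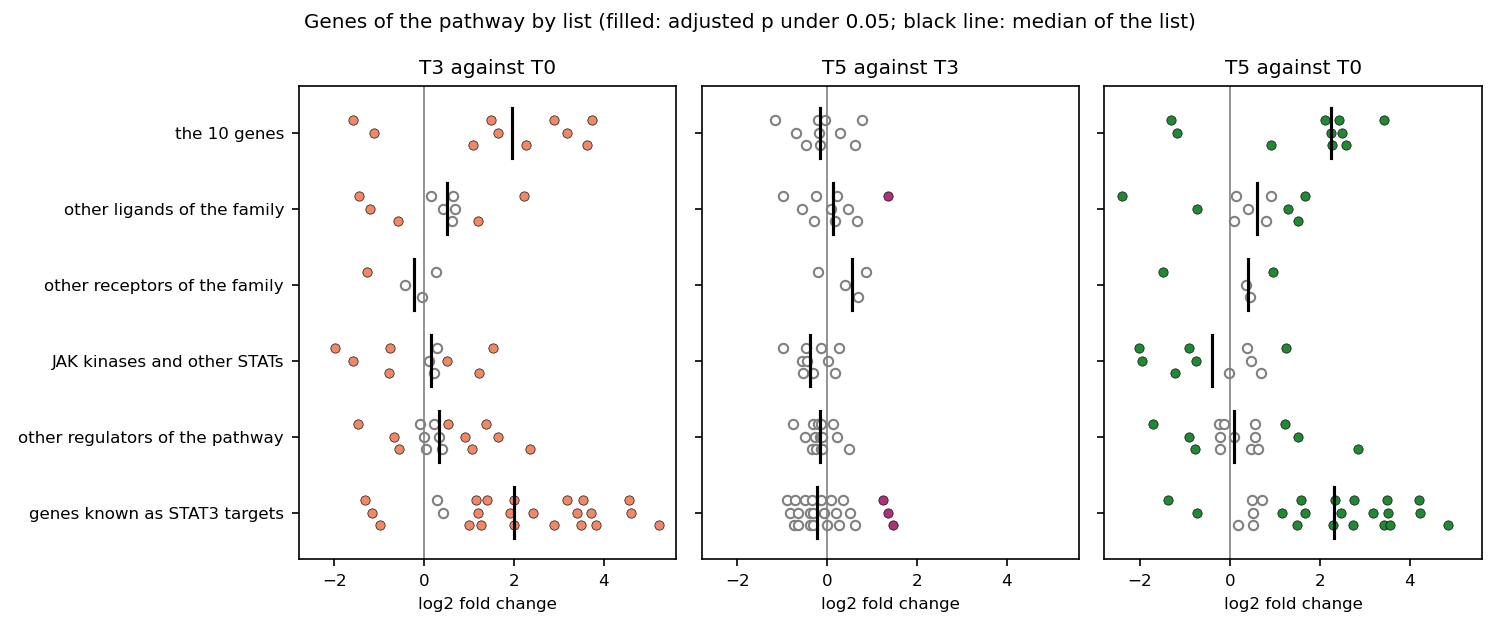
Each point is a gene, placed by its log2 fold change in the 3 comparisons and grouped by list, filled where the edgeR adjusted p was under 0.05, with the median of each list as a black line. The 10 genes and the STAT3 targets have medians of 1.95 and 1.99 in T3 against T0, and the other lists lie between -0.23 and 0.52.

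Of 24 genes known as targets of STAT3, 19 rose in T3 and 3 fell, with a median log2 fold change of 1.99. Over all tested genes 15% were called higher and 22.9% lower, with a median of 0.05. Many of the 24 are targets of other factors as well. Pim1, a survival kinase, rose from 7.84 ± 2.33 to 190 ± 24.3 CPM (4.6 ± 0.26, edgeR adjusted p = 3.23e-11). Fos and Junb, which encode AP-1 subunits, rose from 5.04 ± 0.816 to 189 ± 69.7 CPM and from 5.63 ± 2.22 to 132 ± 33.3 CPM (5.23 ± 0.31 and 4.56 ± 0.31). The 3 that fell were Bcl6, a repressor (-1.32 ± 0.29), Bcl2l1, which inhibits cell death (-0.99 ± 0.21), and Ccnd1, a cyclin of the G1 phase (-1.17 ± 0.21). The counts were the same, 19 and 3, in each of the 17 settings.

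In T5 against T3, 3 of the STAT3 targets were called, all higher, where 1.28% of all tested genes were called higher and 0.888% lower. Ccnd1 rose from 8.19 ± 1.79 to 21 ± 1.45 CPM (1.36 ± 0.23, edgeR adjusted p = 0.00136), where T0 had 18.4 ± 2.84 CPM. Serpina3n and Birc5 rose by 1.47 ± 0.35 and 1.25 ± 0.33, with adjusted p of 0.0239 and 0.0448, and were called in 12 and 9 of 17 settings. Without T3 replicate 1 the values were 1.42 and 1.25, with adjusted p of 0.0672 and 0.095. Of the other 4 lists, only Il27 was called (1.36 ± 0.34, adjusted p = 0.0309), a ligand gene that overlaps Apobr and was called in 10 of 17 settings. At an unadjusted p under 0.05 the receptors, kinases and regulators held 1, 2 and 1 genes, and DESeq2 called 0, 1 and 1. Against T0, T5 had 17 targets higher and 2 lower (median 2.33, against 0.18 over all genes, of which 13.2% were called higher and 22.5% lower). For the other lists of T5 against T0, 3 ligands were higher and 2 lower, 1 receptor each way, 1 kinase higher and 5 STATs or kinases lower, and 3 regulators each way.

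Genes of like pattern were sought by Pearson correlation of log2 CPM over the 9 replicates among 5627 expressed genes, as a description with no test. Il6 was most like Stpg4 (0.989), Kpna2 (0.985) and Iqcn (0.984), all highest in T3. Kpna2, which carries proteins into the nucleus, was at mean levels of 2.1, 18 and 10.7 CPM in T0, T3 and T5. Lif was most like Gprc5a (0.976), Ehd4 (0.974) and Ankrd33b (0.971), which were highest in T5, at 25.7, 58.3 and 66.8 CPM. For Socs3 these were Erf (0.992), Atp1b2 (0.992) and Midn (0.991), and for Stat3 they were Map2k3, Psmd11 and Rap1b, each at 0.998. The points share libraries and the contrast between T0 and the rest, which by itself gives high values.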

How the data were processed

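RNA from fixed muscle stem cells went into strand-marking libraries (SMARTer Stranded kit, Pico Input) and was read as 65-bp single ends, per the labels' protocols. The authors deposited 1 table of raw read counts per gene for 11 libraries, whose values are whole numbers. STAR 2.5.0a, featureCounts 1.4.6-p3, R 3.3.1, DESeq2 1.12.3 and the build GRCm38 are named in the submitters' processing notes, and the annotation release, strand setting and filters are not given in the sources used here. In each library Tsix had 1.004 to 1.014 times the count of Xist, its partner on the other strand, so the counts do not separate strands. IDs were matched to GENCODE vM21 (GRCm38), which gives all gene positions, and 360 of 48709 had no entry. Columns were assigned to groups by name, and T0 and T3 replicates bear the column number, which could not be tied to the letters of the sample titles.

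Tests were made with edgeR 4.0.16 in R 4.3.3 (two-sided quasi-likelihood F test, TMM scaling, the group as the only term, 1 fit for all libraries, low counts filtered by filterByExpr) over 31999 genes, checked on simulated counts. Standard errors come from dividing a log2 fold change by √F. Levels in CPM use TMM-scaled library sizes, and a single T5 library uses the factor of its summed replicate. Levels per length use the merged exon length. DESeq2 1.42.0, other scalings, no filter, T5 libraries kept apart, fits of 2 groups, a replicate block and leaving out each replicate were the alternatives. Of the lists, the genes named are the 3 of smallest p per comparison, called genes that go against their list's majority, and others named for a reason given beside them or because they are ligands or relatives of the 10 genes. Of the like patterns, the 3 highest correlations are named, where the mean log2 CPM was 1 or more (prior count 2). The 10 genes, the lists and the motifs were chosen with earlier results of these data known. Some genes counted in the lists are not reported here by name.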

Additional observations from a re-analysis of the deposited data

Results flagged for a closer look

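In T3 the highest of the 4 Socs1 values, 7.42 CPM in replicate 2, stood apart from the other 3 (5 to 5.34 CPM), with a gap of 0.861 of the group's range. In T3 the lowest of the 4 Socs2 values, 13.4 CPM in replicate 1, stood apart from 19.8 to 20.5 CPM, with a gap of 0.901 of the range. Both gaps exceed Dixon's 95% critical value for 4 samples, which chance passes in about 1 in 20 groups. The check was made in T3 at both ends of all 10 genes, so chance can give such a gap among them. Without T3 replicate 1, the log2 fold change of Socs2 in T3 against T0 was -1.46 (edgeR adjusted p = 0.00479).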

How the results depend on the processing

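The directions of all 10 genes in T3 against T0 and T5 against T0 were the same in all 17 settings, and each was called in T3 against T0 in every setting. In T5 against T3, 1 of the 10 genes was called lower (Il6) with RLE scaling, DESeq2, no filter, T5 libraries kept apart or only 2 groups in the fit, with adjusted p from 0.00423 to 0.0374. In that comparison 1 was called higher with T5 libraries kept apart (Il6ra) and 2 with only 2 groups (Il6ra and Lif). In T5 against T0, 1 was called lower with upper quartile scaling, DESeq2 or only 2 groups, which lose Socs2. Of all genes, those called lower in T5 against T3 were 284, and 456 with upper quartile scaling, 689 with DESeq2, 518 with no filter, 1199 with T5 libraries kept apart, 1645 with 2 groups and 461 with the replicate block. Those called higher were 411, and 268 with RLE scaling, 695 with no filter, 923 with T5 libraries kept apart and 1348 with 2 groups. For T5 against T0 they were 4229, and 7144 with upper quartile scaling. That scaling moved the median of all genes from 0.05 to 0.32 in T3 against T0 and from 0.18 to 0.51 in T5 against T0, and the share of lower calls from 60.4 to 44.7% and from 62.9 to 44.1%. In T5 against T3 the share of lower calls was 40.9%, 50.6% with that scaling and 67.4% with DESeq2. The cause of these shifts was not tested. Leaving out each replicate gave 4132 to 7080 genes higher and 6406 to 8875 lower in T3 against T0, 143 to 922 and 41 to 1581 in T5 against T3, and 2531 to 8280 and 4844 to 9276 in T5 against T0. For the 10 genes it gave 8 higher and 2 lower, 0 to 1 each way, and 7 to 8 higher and 1 to 2 lower. Same-numbered T0 and T3 replicates deviated together with r of -0.168, 0.21 and 0.22, and those of different number with r of -0.315 to 0.307. These values cannot settle whether same-numbered replicates were paired. The replicate block changed no count of the 10 genes (8 and 2, 0 and 0, 8 and 2). In a window of 100 bases before to 50 after the RefSeq start, 3.91% of promoters held STAT, 3.86% AP-1, 0.819% NF-kB and 1.4% CRE letters. Of the 9 matched genes 0 held STAT, 1 AP-1 (Osmr, after its start), 1 NF-kB (Il6) and 0 CRE letters. The AP-1 and STAT matches of Il6, Lif and Socs3 thus lie outside this window. For Socs3 this depends on the start used, and no window was placed at the GENCODE exon before the RefSeq start. Depth limits Il6 in T0, which rests on 10 to 36 reads per library.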
